A study of Mus musculus with 4 samples.

Results

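Apoe, Apoc1, Apoc2 and Lpl are 4 of the 32286 features in the count tables of sorted mouse brain cells. They were chosen by symbol, as apolipoproteins E, C-I and C-II and the lipoprotein lipase that the last of these activates. All 4 were found in each table under 1 identifier each.

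Apolipoprotein E is the main protein of brain lipoproteins, which carry cholesterol and phospholipid between glia and neurons and are taken up by lipoprotein receptors of the cell surface. Apolipoprotein C-II is the cofactor of lipoprotein lipase, the enzyme that splits triglycerides of lipoproteins into fatty acids at the cell surface, whereas apolipoprotein C-I inhibits lipoprotein uptake and lipolysis. Astrocytes are the main source of Apoe in healthy brain. Microglia and macrophages that take up myelin and cell debris are known for high Apoe and Lpl, which belong to the gene programme of disease-associated microglia.

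The cells came from mice of the genotype Tmem119-2A-CreERT2;Ai6, in which a Cre driven by Tmem119, a gene of microglia, switches on the fluorescent protein ZsGreen. The stroke groups, 1 female and 1 male, had the right middle cerebral artery tied off for good (pMCAO), and the sham groups, 1 female and 1 male, had the operation without ligation. On day 3 the operated-side hemispheres of 4 mice per group were dissociated mechanically, enriched on Percoll and pooled, and live ZsGreen-positive cells were sorted for 10x Genomics single-cell RNA sequencing. The study asks how microglia diversify after a permanent stroke. Since each sex and treatment is 1 pool, and the tables do not separate its mice, the variation between mice is unknown. The tests compare stroke with sham over both sexes, with sex in the model. Their spread is how far female and male responses differ, taken mostly from all genes together (1 residual against 49.1 prior degrees of freedom). A gene's own difference between the sexes thus weighs little in its SE and p.

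Apoe, Apoc1 and Apoc2 lie in 1 stretch on the minus strand of chromosome 7 of GRCm38, with Apoc4 between Apoc1 and Apoc2, and Lpl lies on the plus strand of chromosome 8. Apoe spans chr7:19696109-19699188, Apoc1 spans chr7:19689481-19692660, Apoc2 spans chr7:19671579-19677941 and Lpl spans chr8:68880491-68907448. Between the genes lie 3448 bases from Apoc1 to Apoe and 11539 bases, which hold Apoc4 (chr7:19678083-19681479), from Apoc2 to Apoc1. Apoc2 overlaps Gm44805, annotated on the same strand and not a feature of the count tables, which also spans Apoc4, so reads shared between these genes make the Apoc2 count uncertain to that extent. The promoters of Apoe and Apoc2, the genes with the smallest and the largest change of the 4, are shown, being the 2 that matched an entry of the RefSeq promoter table. The windows hold 250 bases before the start and 50 from it on, chr7:19699139-19699438 for Apoe and chr7:19677892-19678191 for Apoc2, both on the minus strand of GRCm38.p6 and written 5′ to 3′ from RefSeq. Capitals mark GAGGAA, the core of a site for the myeloid factor PU.1, on either strand, and AGGTCA, the half-site of nuclear receptors such as the liver X receptors.
Apoe promoter: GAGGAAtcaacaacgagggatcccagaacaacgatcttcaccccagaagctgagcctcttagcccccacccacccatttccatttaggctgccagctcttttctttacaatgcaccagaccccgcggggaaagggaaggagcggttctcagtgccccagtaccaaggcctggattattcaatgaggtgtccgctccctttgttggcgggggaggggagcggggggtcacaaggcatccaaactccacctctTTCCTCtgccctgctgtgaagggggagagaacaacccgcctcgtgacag
Apoc2 promoter: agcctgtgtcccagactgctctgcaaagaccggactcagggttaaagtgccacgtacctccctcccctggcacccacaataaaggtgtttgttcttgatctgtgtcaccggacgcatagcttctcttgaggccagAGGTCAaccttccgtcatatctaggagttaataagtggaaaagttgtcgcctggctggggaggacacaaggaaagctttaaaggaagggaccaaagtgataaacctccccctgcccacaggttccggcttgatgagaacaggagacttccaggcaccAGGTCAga

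The Apoe window held GAGGAA on the gene's strand at position 1 and on the other strand at position 252, counted from the 5′ end of the window, in which the start is position 251. The Apoc2 window held AGGTCA on the gene's strand at positions 136 and 293. GAGGAA occurred in 28.3% and AGGTCA in 16.3% of the 32851 promoters of the same length. TATAAA was found in 13.6% of promoters, GGGCGG in 35.7%, TGANTCA in 7.81% and AGGTCA copies in tandem 4 bases apart in 0.0152%, and none of these was in either window on either strand. A match is a run of letters and no evidence of a bound factor.

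The tables held 66072270 and 52733857 unique molecular identifiers (UMIs, each standing for 1 counted RNA molecule) in the female and male stroke pools and 29581392 and 40970923 in the female and male sham pools. After quality control 18037 of 20437 barcodes remained, and 13941 of these were microglia-like, a name given for P2ry12, Tmem119 and like markers. All 11 microglia markers were detected in them in each pool. The male sham pool held no barcode under 4198 UMIs, unlike the others. Of the barcodes, 43 occurred in more than 1 pool, 4 to 11 for a pair of pools. Although the sort was for ZsGreen, macrophage-like, dendritic cell-like, choroid plexus-like and other classes were present too, and a monocyte-derived macrophage-like class made up most of the remaining stroke cells. Values are given below as UMIs of a gene per 10000 UMIs of the cells named, in which each molecule is counted once whatever its length. Other differences in counting between genes remain, such as the overlap of Apoc2 with Gm44805, so levels of different genes compare only roughly.

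All 4 genes rose in microglia-like cells after stroke, Apoc2 by the most and Apoe by the least. Over all genes 25.3% of the 14207 tested were called higher in stroke at an adjusted p of 0.05 (edgeR's quasi-likelihood test with Benjamini-Hochberg adjustment), so a call alone does not set these genes apart. What differed between them was the size of the change, the cells that carried it and how far the level stood above that of the cells used to gauge free RNA.

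Lpl was at 2.27 UMIs per 10000 in female and 2.10 in male stroke microglia-like cells, against 0.316 in female and 0.640 in male sham cells. Both stroke pools lay well above both sham pools. Summed per pool and scaled by TMM, Lpl rose 5.90-fold, a log2 change of 2.56 ± 0.17 (SE), with an adjusted p of 5.53e-18 by edgeR's quasi-likelihood test. Within a sex the log2 change was 3.17 in females and 1.99 in males. Over both sexes it was 2.03 without the female sham pool and 3.17 without the male sham pool, and the call held in both (edgeR, adjusted p 1.61e-06 and 1.1e-07).

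Apoc2, the cofactor of the lipase, was at 0.334 UMIs per 10000 in female and 0.293 in male stroke microglia-like cells, against 0.0229 in female and 0.0130 in male sham cells. Those sham levels rest on 46 and 31 UMIs in all. The log2 change was 4.45 ± 0.20 (SE; edgeR, adjusted p 4.67e-25), or 21.9-fold, with 4.20 in females and 4.76 in males.

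Apoc1 was the rarest of the 4 in stroke cells, at 0.197 UMIs per 10000 in female and 0.137 in male stroke microglia-like cells, against 0.1004 in female and 0.0324 in male sham cells. Its log2 change was 1.77 ± 0.19 (SE; edgeR, adjusted p 2.33e-11), or 3.40-fold, with 1.30 in females and 2.35 in males. The female sham level rests on few cells: of its 202 Apoc1 UMIs, 106 were in 1 cell of cluster 5 and 61 in 1 cell of cluster 1 of the clusters described below. Of the 77 UMIs of the male sham pool, 20 were in 1 cell. The log2 change was 2.63 without the female sham pool and 1.12 without the male sham pool, and the call held in both (edgeR, adjusted p 0.000155 and 0.00267).

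Apoe was the most abundant of the 4 by far, at 27.0 UMIs per 10000 in female and 22.4 in male stroke microglia-like cells, against 20.8 in female and 15.3 in male sham cells. The pools did not overlap, although female sham and male stroke cells lay close together. The log2 change was 0.76 ± 0.15 (SE; edgeR, adjusted p 5.44e-05), or 1.69-fold, with 0.70 in females and 0.82 in males. Without the female stroke pool the call was lost, at a log2 change of 0.63 and an adjusted p of 0.0943 by edgeR. Across the alternatives that did not choose cells by Apoe itself, the adjusted p of Apoe ranged between 4.61e-24 and 0.0943 and its log2 change between 0.46 and 2.00, whereas the calls of Apoc1, Apoc2 and Lpl held in each alternative in which they were tested.

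**Figure D1:**
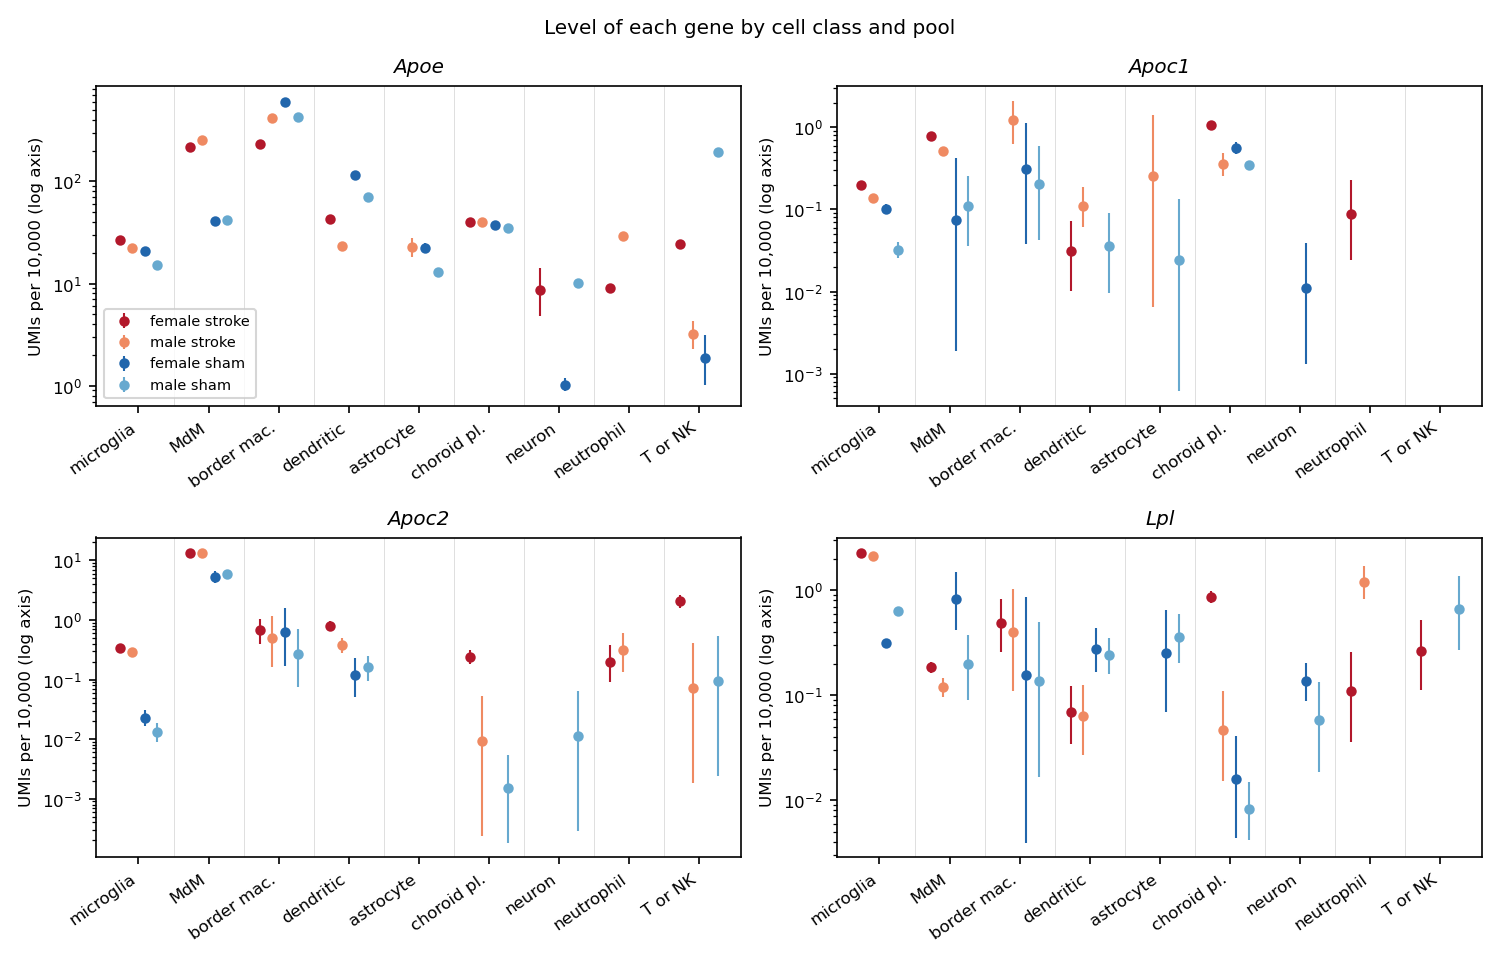
UMIs per 10000 (log axis) of each gene by cell class in the female and male stroke pools and the female and male sham pools, with exact Poisson 95% intervals that cover counting error only; MdM, monocyte-derived macrophage-like; border mac., border-associated macrophage-like; sums of under 10 cells and levels of 0 are not drawn. Apoe in MdM was 218 and 256 in stroke against 40.8 and 41.6 in sham, while Lpl in stroke microglia-like cells was at 2.27 and 2.10, against 0.184 and 0.120 in stroke MdM.

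The distribution of Apoe over cells differed more between stroke and sham than its level did. The median microglia-like cell held 5 Apoe UMIs in female and 3 in male stroke mice, against 0 in both sham pools. At the 90th percentile there were 82 and 67.7 UMIs in the female and male stroke pools and 5 and 7 in the female and male sham pools. These counts are not scaled for depth, which was greater in stroke cells, as given below. In the cells used below to gauge free RNA the median was 1 Apoe UMI in both stroke pools and 0 in both sham pools. Sham Apoe of microglia-like cells sat in few cells. The 1% of them with the most Apoe UMIs held 19.4% and 19.8% of the Apoe UMIs of the stroke pools, and 74.4% and 61.4% of those of the sham pools.

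Cells with at least 100 Apoe UMIs per 10000, a limit set after the values were seen, numbered 183 among 3482 female stroke cells (5.26%) and 130 among 3264 male ones (3.98%), against 56 of 3186 (1.76%) female and 86 of 4009 (2.15%) male sham cells. They held 38.7% and 36.2% of the Apoe UMIs in the stroke pools and 80.6% and 71.8% in the sham pools. Among the other cells the level was 17.6 and 15.02 UMIs per 10000 in the stroke pools against 4.16 and 4.45 in the sham pools. In 1 female sham cell Apoe alone made up 19.4% of the UMIs.

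The Apoe-rich cells carried more of the genes of macrophages and of the disease-associated state than the other cells of their pools, in stroke and in sham. In the stroke pools 10 of the 12 markers of monocyte-derived macrophages were higher in them in each sex, and the list summed to 26.2 UMIs per 10000 against 11.9 in the other female stroke cells and to 29.8 against 11.4 in males. In the sham pools it summed to 82.7 against 3.64 in females and to 48.3 against 3.93 in males. The 11 markers of the disease-associated state summed to 117 against 55.8 in female and 134 against 54.9 in male stroke cells, with 10 and 9 of them higher. They summed to 23.8 against 5.50 in female and 22.0 against 6.96 in male sham cells, with 10 and 11 higher.

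Lyz2, a lysozyme gene of myeloid cells, was at 76.8 UMIs per 10000 in the Apoe-rich female sham cells against 3.495 in the other female sham cells, and at 44.3 against 3.81 in males. In the stroke pools it was at 18.2 against 7.25 in females and at 20.02 against 6.90 in males. In sham cells Ms4a7, a gene of macrophages outside the microglial lineage, was at 5.14 against 0.00102 in females and at 3.26 against 0.00346 in males. In each sex 6 of the 12 markers of monocyte-derived macrophages were higher in the Apoe-rich sham cells and the other 6 were at 0 in them, Ly6c2, Plac8, Chil3, F10 and Arg1 among these. Of the 9 markers of border-associated macrophages 7 were higher in female and 9 in male Apoe-rich sham cells, and the list summed to 9.60 against 1.99 in females and to 8.08 against 1.59 in males. None of the 11 microglia markers was higher in the Apoe-rich sham cells, and their sum was 155 against 314 in females and 176 against 291 in males. A pair of cell selections was added after the data were seen. Without cells holding a UMI of Ms4a7, Mrc1 or Pf4, the log2 change in stroke over sham was 1.74 for Apoe, 3.86 for Apoc1, 5.71 for Apoc2 and 2.47 for Lpl. Without the 1% of cells with the highest Apoe share it was 2.17 for Apoe, 4.40 for Apoc1, 6.204 for Apoc2 and 2.60 for Lpl. That selection uses Apoe itself and takes out more of its UMIs in sham than in stroke, so its values are a description with no test.

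**Figure D2:**
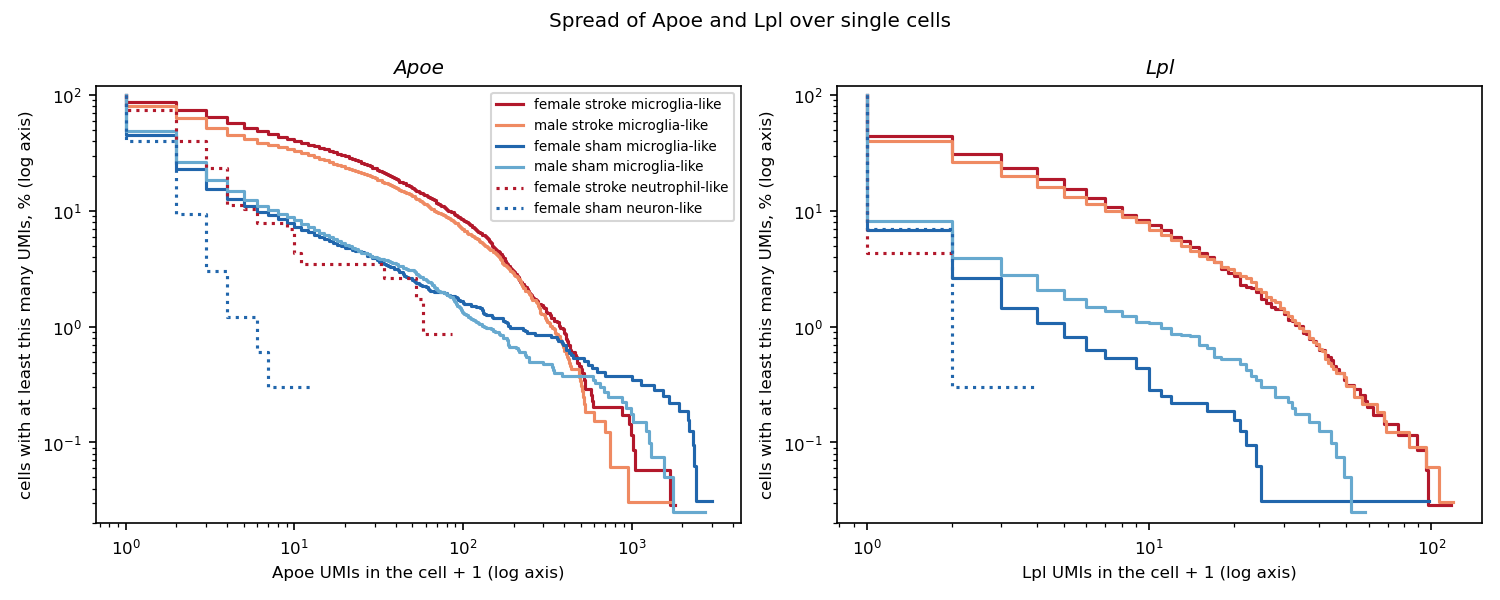
Share of cells (percent, log axis) with at least a given number of UMIs plus 1 (log axis) of Apoe and Lpl, for microglia-like cells of the 4 pools (solid) and for female stroke neutrophil-like and female sham neuron-like cells (dotted). The stroke curves of Apoe lie above the sham curves over most of the range, and the sham curves cross them at the far right; for Lpl, 44.6% and 39.9% of stroke cells against 6.91% and 8.21% of sham cells held a UMI.

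Free RNA, released by broken cells and captured in every droplet, was gauged in classes assumed to transcribe little of these genes. They were neutrophil-like, T or NK cell-like, neuron-like and oligodendrocyte-like cells. Among these, 75% of 164 female and 59.4% of 101 male stroke cells held an Apoe UMI, and 48.9% of 589 female and 48.6% of 173 male sham cells did, at median depths of 3229, 3023, 3325 and 5825 UMIs. In microglia-like cells the shares were 87.3% and 81.1% in the female and male stroke pools and 45.0% and 48.8% in the female and male sham pools, at median depths of 8834, 8784, 6182 and 5421 UMIs. The sham shares of microglia-like cells were thus at the level of these classes, and are not read as expression. The classes were not free of microglial RNA. P2ry12 was found in 31.3% of female and 30.9% of male stroke neutrophil-like cells. In stroke T or NK cell-like cells the shares were 28.9% and 12.5%. In sham oligodendrocyte-like cells they were 18.6% in females and 95% in males. Whether these were free RNA or barcodes that also held microglia was not tested, so the background may include microglial expression.

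At equal depth the stroke share of Apoe was close to that of neutrophil-like cells and above that of T or NK cell-like cells. With each cell thinned to 2000 UMIs, 66.5% (exact 95% interval 64.9 to 68.1) of female and 56.8% (55.0 to 58.5) of male stroke microglia-like cells held an Apoe UMI, against 25.9% and 28.6% of female and male sham cells. For neutrophil-like cells of the stroke pools the thinned shares were 62.1% (51.0 to 72.3) in females and 47.2% (33.3 to 61.4) in males. The microglial shares did not stand apart from these beyond counting error in females or males. T or NK cell-like cells of the stroke pools held less, at 44.4% (27.9 to 61.9) and 21.7% (7.46 to 43.7). Their intervals lay below those of microglia-like cells in both sexes. Stroke microglia-like cells also differed in the number of UMIs, since 48.99% of the female and 37.0% of the male stroke cells held more Apoe UMIs than the 90th percentile of the background cells of their pool, against 15.6% of female and 14.9% of male sham cells. Depth was not equal in that count.

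For Lpl the stroke share was above the background beyond counting error in females, and in value but with intervals that meet in males. The thinned share was 20.3% (19.0 to 21.7) in female and 17.6% (16.3 to 19.0) in male stroke microglia-like cells, against 3.37% and 4.32% in female and male sham cells. In stroke neutrophil-like cells it was 2.30% (0.280 to 8.06) in females and 7.55% (2.09 to 18.2) in males. In stroke monocyte-derived macrophage-like cells, at medians of 13432 and 13412 UMIs before thinning, it was 2.60% and 2.03%.

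For Apoc2 and Apoc1 the shares did not clear the background. Thinned, 4.26% (3.60 to 5.0) of female and 3.34% (2.74 to 4.03) of male stroke microglia-like cells held an Apoc2 UMI, while 3.45% (0.717 to 9.75) of female and 3.77% (0.460 to 13) of male stroke neutrophil-like cells did. The level of Apoc2 was also within the interval of these cells, at 0.334 and 0.293 UMIs per 10000 in microglia-like and 0.199 (0.0910 to 0.378) and 0.311 (0.134 to 0.613) in neutrophil-like cells of the stroke pools. Apoc1 was found in 2.60% of female and 1.81% of male stroke microglia-like cells after thinning, against 1.15% (0.0291 to 6.24) and 0% of neutrophil-like cells of the same pools, of which 53 in the male pool gave no UMI. In T or NK cell-like cells Apoc2 was at 2.10 (1.61 to 2.68) in the female stroke pool, 64 UMIs of which 40 were in 1 of the 38 cells, and at 0.0724 (0.00183 to 0.404) in the male stroke pool. Apoc1 had no UMI in the 38 female and 24 male stroke T or NK cell-like cells. The rise of Apoc2 and Apoc1 after stroke therefore cannot be told apart from the RNA of neutrophil-like cells by these shares.

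Set against Apoe, Lpl was more abundant and Apoc2 less abundant in microglia-like than in macrophage-like cells of the stroke pools. For each 100 Apoe UMIs there were 8.40 and 9.40 Lpl UMIs in female and male stroke microglia-like cells, against 0.0841 and 0.0468 in the monocyte-derived macrophage-like class. There were 1.24 and 1.31 Apoc2 UMIs in stroke microglia-like cells, against 6.08 and 5.30 in the macrophage-like cells. When the UMIs per T or NK cell-like cell of the same pool were subtracted first, the female log2 ratio of UMIs per cell, stroke over sham, was 0.0063 for Apoe in place of 1.27, and 3.61 for Lpl in place of 3.73. The 38 female stroke T or NK cell-like cells averaged 19.8 Apoe UMIs although their median was 1. For Apoc1 the ratio stayed at 1.86 in females and 3.05 in males, since no T or NK cell-like cell held an Apoc1 UMI. For Apoc2 the subtraction left less than 0 in female stroke cells. In males it left less than 0 in sham cells for Apoe, Apoc2 and Lpl. For Apoe a few of 12 male sham T or NK cell-like cells carried 195 UMIs per 10000.

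Within microglia-like cells the 10 clusters ranked Apoe and Lpl differently. In the stroke pools Apoe was highest in cluster 5, led by Cox6a2 and Cst7 and given no state name, at 37.9 and 27.5 UMIs per 10000 in females and males, and in the disease-associated cluster 10, led by Spp1, at 36.5 and 37.9. These 2 clusters did not differ beyond the spread of the pools. Cycling cells of cluster 7 followed at 23.5 and 23.2, and cluster 0, whose leading genes include P2ry12, had 3.60 and 4.52, against 3.61 and 6.51 in its female and male sham cells. Cluster 0 was lowest in female stroke cells, and in male stroke cells its interval overlapped that of cluster 6, at 3.98. Cluster 4, which kept the microglial genes P2ry13 and P2ry12 in the lead, had 10.7 and 5.09 in stroke against 2.55 and 2.23 in sham.

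Cluster 5 held 27.7% and 27.4% of the microglial Apoe UMIs of the female and male stroke pools, in 621 and 603 cells. In the sham pools it had 26 female and 32 male cells, at 760 and 250 UMIs per 10000. These held 55.2% of the Apoe UMIs in females, whereas in males they held 20.4%, beside 23.3% in cluster 2, 19.4% in cluster 8 and 19.2% in cluster 0. Of the Apoc1 UMIs of the sham pools cluster 5 held 55.0% in females, nearly all in the 1 cell with 106, and 27.3% in males, where cluster 2 held 38.96%.

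Lpl was highest in the chemokine cluster 14, led by Ccl4 and Ccl3, in female stroke cells, while in male stroke cells its interval overlapped that of cluster 10. Its level there was 6.92 and 4.97 UMIs per 10000 in 62 female and 56 male stroke cells, against 8.11 and 9.90 in 34 female and 105 male sham cells, so this cluster did not have the stroke rise seen in the class as a whole. It held 3.45% and 3.31% of the microglial Lpl UMIs of the stroke pools but 37.8% and 50.2% of those of the sham pools. The disease-associated cluster 10 stood at 5.17 and 4.78 in the stroke pools, with a Lpl UMI in 89.4% and 89.2% of cells at median depths of 17444 and 17136 UMIs, and it held 35.01% and 30.9% of the Lpl UMIs. Only 1 female and 5 male sham cells fell in cluster 10, so it gives no comparison with sham.

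Apoc2 was highest in cluster 10 among the stroke clusters, at 0.651 (exact Poisson 95% interval from 0.589) UMIs per 10000 in females and 0.761 (from 0.688) in males, above the upper bounds of 0.378 and 0.613 in neutrophil-like cells of the same pools. The female value was below the 2.10 of T or NK cell-like cells of its pool, and the male value was above the upper bound of 0.404 of those of its pool. Apoc1 in clusters 5, 10 and 7 was at 0.286, 0.272 and 0.181 in female stroke cells, where the intervals of clusters 5 and 10 overlapped, and at 0.162, 0.250 and 0.126 in male stroke cells, where cluster 10 lay above the others beyond counting error. Clusters were formed without the 4 genes among the variable genes, but on other genes of the same cells, so these levels are a description without a test.

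**Figure D3:**
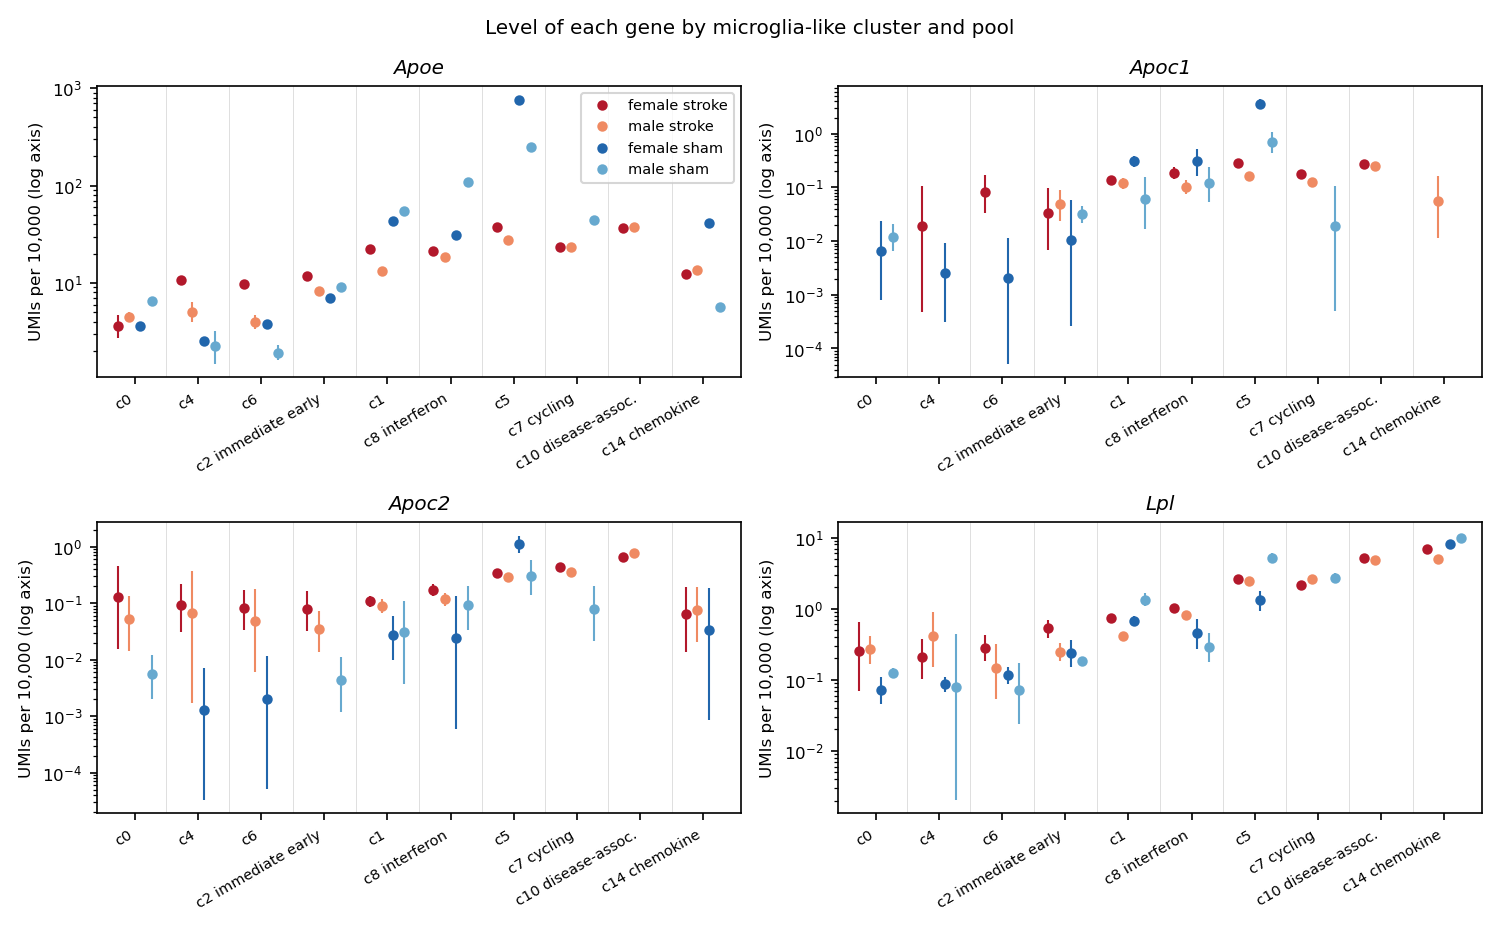
UMIs per 10000 (log axis) of each gene by microglia-like cluster in the stroke and sham pools, with exact Poisson 95% intervals; sums of under 20 cells and levels of 0 are not drawn. Apoe of cluster 5 was 760 and 250 in female and male sham cells, above 37.9 and 27.5 in stroke cells, and Lpl of cluster 14 was 6.92 and 4.97 in stroke against 8.11 and 9.90 in sham.

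Monocyte-derived macrophage-like cells, phagocytes that arrive from blood, had the highest Apoc2 and, with border-associated macrophage-like cells, the highest Apoe of the stroke pools. Their Apoe was at 218 UMIs per 10000 in 1047 female and 256 in 550 male stroke cells, against 40.8 in 12 female and 41.6 in 42 male sham cells. Apoc2 was at 13.3 and 13.6 in the stroke pools, against 5.27 and 6.02 in the sham pools, and Apoc1 at 0.791 and 0.513 in the stroke pools. The Apoe UMIs of this class outnumbered those of microglia-like cells, at 330418 and 205303 against 109878 and 84998 in female and male stroke pools. Lpl was low in it, at 0.184 and 0.120 in stroke against 0.829 and 0.198 in sham, the female sham value resting on 11 UMIs.

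The macrophage comparison set different cells side by side. Nearly all of its stroke cells were in cluster 3, led by Arg1 and Thbs1, where Apoe was at 219 and 257. The sham cells were mostly in cluster 20, led by Ear2 and Itgal. Of the 10 leading genes of cluster 20, 1 was a marker of monocyte-derived macrophages, against 5 of cluster 3, so its name is less certain. Within cluster 20, Apoe was at 45.2 and 37.4 in 9 female and 5 male stroke cells, against 65.2 and 53.4 in 8 female and 25 male sham cells. Within cluster 3 the order was the reverse. Its 4 female and 17 male sham cells had Apoe at 13.1 and 34.7, below the 219 and 257 of its stroke cells. No test was run on this class, since its sham pools were under the minimum of 50 cells.

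Border-associated macrophage-like cells, the resident macrophages of meninges and vessels, had Apoe at 230 and 418 UMIs per 10000 in 17 female and 15 male stroke cells, against 598 and 423 in 11 female and 24 male sham cells. Stroke and sham did not differ beyond the spread of the pools, and in the stroke pools this class was not apart from monocyte-derived macrophage-like cells. Dendritic cell-like cells had Apoe at 42.4 and 23.3 in female and male stroke cells, against 116 and 71.1 in female and male sham cells, with medians of 1 and 1 UMI against 57 and 19. Their sham pools were above their stroke pools, the reverse of microglia-like cells.

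Choroid plexus-like cells, the Ttr-rich epithelium that makes cerebrospinal fluid, had nearly the same Apoe throughout, at 40.2 and 40.1 UMIs per 10000 in the stroke pools against 37.3 and 35.2 in the sham pools, and had Apoc1 at 1.07 and 0.356 against 0.558 and 0.352. In them Apoe was found in 95.7% to 100% of cells after thinning. The cluster named astrocyte-like had Apoe at 22.5 in 10 male stroke cells, against 22.4 and 12.8 in 43 female and 63 male sham cells, but it was mixed. P2ry12, a microglial gene, was found in 50% of its male stroke, 34.9% of its female sham and 96.8% of its male sham cells, and Aqp4, a gene of astrocytes, in 30% of its male stroke, 20.9% of its female sham and 9.52% of its male sham cells. At a Leiden resolution of 0.4 no male sham cell was named astrocyte-like, so the male sham value is not read as a level of astrocytes.

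In order of level over the stroke pools, Apoe ran from the macrophage-like classes, through choroid plexus-like, dendritic cell-like and microglia-like cells, to lymphocyte-like (T or NK) and neutrophil-like cells and then neuron-like cells. The order of lymphocyte-like and neutrophil-like cells differed between females and males. Of all these classes, the dendritic, microglia, neutrophil and lymphocyte classes overlapped over the pools. Neutrophil-like cells had 9.09 and 29.4, and the T or NK class 24.6 and 3.19, in female and male stroke pools, with a median of 1 UMI in each, so that a few cells set these levels.

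Of the 4 genes, Apoc1 was called between the sexes. It was higher in females, with a log2 change of 0.93 ± 0.18 (SE), an unadjusted p of 5.93e-06 and an adjusted p of 0.00766 by edgeR's quasi-likelihood test, in which 0.148% of genes were called for sex in either direction. DESeq2 did not call it, with an adjusted p of 1.0. The Apoe-rich sham cells had Apoc1 at 3.31 and 0.964 UMIs per 10000 in females and males, and without them it was at 0.00409 and 0.00519. The log2 change, female over male, was 0.32 for Apoe, 0.31 for Apoc2 and -0.46 for Lpl, with an adjusted p of 0.998 for each by edgeR. Each sex was 1 pool per treatment, so sex and pool cannot be told apart.

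The genes most like each of the 4 were ranked by Pearson's r of log2(UMIs per 10000 + 0.1) over 19 sums of a class in a pool, which share their pools and, for microglia-like cells, most of their depth. They were Anxa5 (r 0.90), Txndc17 and Prdx1 for Apoe, Nt5dc2 (r 0.93), Hspa9 and Tceal9 for Apoc1, Vat1 (r 0.96), F10 and Emp1 for Apoc2, and Ch25h (r 0.87), Ccl12 and AI506816 for Lpl. Over 31 sums of a microglia-like cluster in a pool they were Lyz2 (r 0.92), Cst7 and Ifitm3 for Apoe, Prdx5 (r 0.80), Pomp and Ifitm3 for Apoc1, Fn1 (r 0.96), Wfdc17 and Lgals1 for Apoc2, and Capg (r 0.96), Npm1 and Tpd52 for Lpl. These are descriptions of shared pattern only.

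Of other genes of the pathway, given as CPM (UMIs scaled to the TMM-adjusted total of a pool's microglia-like cells), those of lipid loading and efflux mostly rose. Of 11 tested of 12, 9 rose and 1 fell, with a median log2 change of 0.69 against -0.044 over all genes tested, and 50.7% of all genes were called in either direction. Tspo, a cholesterol-binding protein of the mitochondrial outer membrane, had 554 and 585 CPM in female and male stroke cells against 89.0 and 126 in sham cells (log2 2.43). Nceh1, which hydrolyses cholesteryl esters in macrophages, had 62.0 and 51.9 CPM against 18.9 and 19.9 (log2 1.55). The transporters that load cholesterol and phospholipid onto apolipoprotein E rose less, Abca1 with 364 and 341 CPM against 238 and 200 (log2 0.69), Abcg1 by 0.71 and Abca7 by 1.05 on the log2 scale. Cyp27a1, which makes an oxysterol ligand of the liver X receptors, fell, with 11.6 and 11.1 CPM in stroke against 22.0 and 21.9 in sham (log2 -0.95).

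Around the lipase itself, 5 of 10 tested genes of LPL maturation, anchoring and inhibition rose and 1 fell, of 16 listed. Their median log2 change was 0.36, and 50.7% of all genes were called in either direction. Angptl4, the secreted inhibitor of lipoprotein lipase, had 12.8 and 10.8 CPM in stroke against 0.175 and 0.465 in sham (log2 5.14 ± 0.30, SE; edgeR, adjusted p 2.96e-20). Gpihbp1, which anchors the lipase on capillary endothelium, had no UMI in microglia-like cells of any pool. Of proteins of its folding, Lmf1, the maturation factor, had 33.1 and 35.5 CPM in stroke against 30.1 and 32.3 in sham and was not called (log2 0.14), whereas Lmf2 rose by 0.87 and the chaperone Calr by 1.66. Sdc3, a heparan sulfate proteoglycan to which the lipase can bind, had 126 and 122 CPM against 29.4 and 27.2 (log2 2.13). Furin, a protease that cleaves the lipase, rose by 0.53.

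Of 14 tested receptors of lipoproteins and apolipoprotein E, of 16 listed, 6 rose and 2 fell, beside 50.7% of all genes called. Their median was 0.43. Lrp1, a receptor for lipoproteins that carry apolipoprotein E, had 464 and 432 CPM in stroke against 342 and 281 in sham (log2 0.53). Trem2, a microglial receptor that binds apolipoprotein E, had 2066 and 2140 CPM in stroke against 2120 and 2390 in sham and was not called (log2 -0.099), and its direction turned in some alternatives. Lrp8 (log2 0.67) was not called either, and turned direction when cycling cells were left out. Vldlr fell, with 0.109 and 0.0879 CPM in stroke against 0.570 and 1.09 in sham (log2 -2.98), all of them low. Lrpap1, the chaperone of these receptors, rose by 1.17, Scarb1, a receptor for high-density lipoproteins, by 0.99 and Sorl1 by 0.57, and Mylip, a ubiquitin ligase, fell by 0.34.

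Among lipases and lipid droplet genes, of which 10 of 12 were tested, 2 rose and 3 fell, beside 50.7% of all genes called. Their median was 0.0027. Plin2, a coat protein of lipid droplets, had 301 and 268 CPM in stroke against 16.9 and 25.1 in sham (log2 3.78 ± 0.17, SE; edgeR, adjusted p 3.91e-25). Abhd5, a cofactor of triglyceride lipase, rose by 0.59. Mgll, the monoacylglycerol lipase, fell by 1.19, Lipe by 0.62 and Pnpla2, the adipose triglyceride lipase, by 0.40.

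Other apolipoproteins were mostly scarce: of 17 listed 9 were tested, of which 6 rose and 2 fell, beside 50.7% of all genes called. Their median was 0.71, and Apool, a mitochondrial protein despite its name, was the 1 above a mean of 10 CPM (log2 0.36). Of 18 nuclear receptors and factors of Apoe and Lpl transcription 16 were tested, 2 rose and 5 fell, beside the same 50.7%. Their median was -0.18. Nr1h3, which encodes liver X receptor alpha, had 1.57 and 1.05 CPM in stroke against 0.350 and 0.427 in sham (log2 1.72), and Srebf1 rose by 0.48. Mlxipl fell by 0.77, Rxrb by 0.52 and Tfeb by 0.49. Scaled by library totals without TMM, the median of all genes stood at -0.34 in place of -0.044, and Lrp1, Sorl1, Furin, Abhd5, Srebf1 and Apool were no longer called, while Trem2 was called lower (log2 -0.40).

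**Figure D4:**
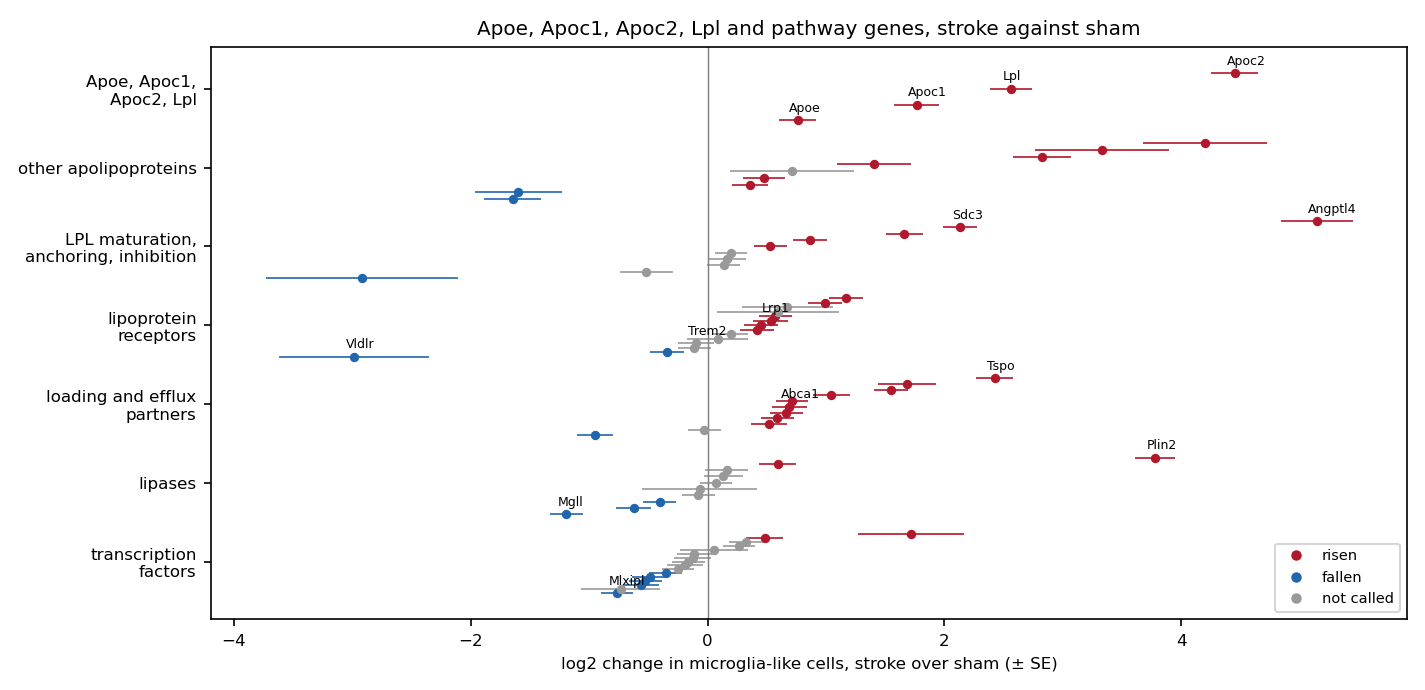
Log2 change, stroke over sham, in microglia-like cells (points) with SE (bars) for Apoe, Apoc1, Apoc2 and Lpl and for the tested genes of 6 pathway lists, coloured as risen, fallen or not called at an adjusted p of 0.05. Apoc2 at 4.45 lies to the right of Lpl at 2.56 and Apoe at 0.76, and Angptl4 at 5.14 and Plin2 at 3.78 are the pathway genes farthest to the right besides Apob at 4.20.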

How the data were processed

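The deposited tables hold counts, whole numbers of UMIs per feature and barcode from 10x Genomics 3′ libraries, with cells called by the authors. Cell Ranger 7.1.0 and the build mm10 stand in the submitters' processing notes, but per the file headers cellranger 6.1.2 wrote the matrices. The treatment of intronic reads is not stated in what was used here. No column of another series was present (0).

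Barcodes with at least 500 genes, 1000 UMIs and at most 10% mitochondrial UMIs were kept, and 8 Scrublet calls (0.0443%) were left out, a share at which the caller has not worked, so doublets remained. Cells were scaled to 10000 UMIs, reduced to 2000 variable genes without the 4 studied here, 30 components and 15 neighbours, and clustered by Leiden at 0.8 into 22 clusters (scanpy 1.11.5, leidenalg 0.10.2, Python 3.11.15). Clusters were named from 17 marker classes by at least 3 markers, each in at least 25% of cells, checked against the 10 leading genes. For this check the markers of microglial states were counted as the microglia's own and 1 cluster of 49 cells stayed unnamed, both decided after the clusters were seen. Gene positions came from the annotation of GRCm38 and promoters from RefSeq's GRCm38.p6, where 2 of the 4 genes were found.

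UMIs were summed per pool over microglia-like cells and tested with edgeR 4.0.16 (R 4.3.3), TMM, its default filter, a model of sex and treatment with 1 residual degree of freedom, and 49.1 prior degrees of freedom, two-sided, Benjamini-Hochberg adjusted over 14207 genes. The code was tested on simulated data. DESeq2 1.42.0, other scalings, filters and cell selections, and each pool left out, were tried. In edgeR, 3601 genes rose and 3599 fell. SE is the log2 change over the root of F, and intervals are exact at 95%; both cover less than the variation between mice. Cells were thinned to 2000 UMIs for shares, leaving out 102 and 123 female and male stroke and 185 and 0 female and male sham microglia-like cells.

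The 4 genes, the pathway lists and the tests were chosen with earlier results of these data known. Of each list, up to 4 risen and 4 fallen genes of largest log2 change with a mean of at least 10 CPM and 1 direction in both sexes are named, and Lrp1, Trem2, Lrp8, Vldlr, Abca1, Gpihbp1, Lmf1, Angptl4 and Nr1h3 whatever their value. Some genes are not reported here.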

Additional observations from a re-analysis of the deposited data

Results flagged for a closer look

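Barcodes left out by quality control, mostly for a high mitochondrial share, belong to no comparison above. In the stroke pools there were 951 female and 848 male such barcodes, against 557 female and 44 male in the sham pools. Apoe was at 46.8 UMIs per 10000 in the male stroke barcodes, against 35.6 in the male sham ones, but in females it was lower in stroke, at 35.1 against 36.4. Apoc1 was at 0.414 in the female stroke barcodes, against 0.4102 in the female sham ones, and at 0.268 in the male stroke barcodes, against 0.281 in the male sham ones. Apoc2 was at 0.383 in the female stroke barcodes, against 0.00594 in the female sham ones, and at 0.422 in the male stroke barcodes, against 0 in the male sham ones. Lpl was at 1.15 in the female stroke barcodes, against 0.0386 in the female sham ones, and at 1.53 in the male stroke barcodes, against 0.0165 in the male sham ones. The mix of cell classes among these barcodes was not determined, and its part in these values was not tested.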

How the results depend on the processing

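Counting depth limits Apoc1 and Apoc2, whose sham values rest on 31 to 202 UMIs per pool, and 1 pool per sex and treatment limits every test. The model without the sex term moved no call of the 4 genes. Apoe lost its call without the female stroke pool, and with each pool left out in turn its log2 change ran between 0.63 and 0.95. The sex difference of Apoc1 was not called by DESeq2 (log2 0.98). Genes called higher numbered 2299 with library totals, 353 without cells holding a macrophage-marker UMI, 1828 without cycling cells, and 2341 to 4456 with a pool left out. Genes called lower numbered 6367, 65 and 1447 under the same settings, 1790 by DESeq2, and 1701 to 3947 with a pool left out.

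Leaving out cells with a macrophage-marker UMI kept 187 of 3482 female and 240 of 3264 male stroke microglia-like cells. In the sham pools it kept 987 of 3186 female and 1040 of 4009 male ones. The effects of fewer cells and of the missing marker cannot be told apart in this selection. List genes called in it numbered 0 for other apolipoproteins, 2 for LPL maturation, 0 for receptors, 1 for loading and efflux, 1 for lipases and 0 for transcription factors. Without cycling cells they were 4 for other apolipoproteins, 3 for lipases and 3 for transcription factors. DESeq2 called 5 other apolipoproteins and 3 transcription factors, and library totals 12 transcription factors. Receptors called were 5 without cells above the 95th UMI percentile and 5 without cells holding Ms4a7, Mrc1 or Pf4. With a pool left out, 3 to 10 receptors, 2 to 6 lipases and 1 to 10 transcription factors were called.

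The log2 change turned direction without macrophage-marker cells for Apool (-0.069), Lmf2 (-0.012), Mylip (0.046), Lipe (0.24) and Srebf1 (-0.44). It turned with library totals for Lmf1 (-0.16), and without cycling cells for Mylip (0.079), Trem2 (0.19) and Lrp8 (-0.27). With a pool left out, Trem2 ran between -0.19 and 0.041. The cause was not tested in any of these.

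Averaged over cells in place of summed, Apoe was at 20.8 UMIs per 10000 in stroke and 11.4 in sham microglia-like cells, Apoc2 at 0.219 in stroke and 0.00962 in sham, Lpl at 1.67 in stroke, and Apoc2 in stroke macrophage-like cells at 13.9. At a Leiden resolution of 1.6, sham microglial Apoe was at 12.1 and macrophage-like stroke Apoc2 at 14.7. Thinned to 1000, thinned to 4000 and not thinned, shares with a UMI were 48.7%, 73.6% and 84.2% in stroke and 18.8%, 38.8% and 46.9% in sham for Apoe, 1.19%, 3.67% and 7.48% in stroke and 0.216%, 0.464% and 0.694% in sham for Apoc1, 2.08%, 7.80% and 17.0% in stroke and 0.0970%, 0.375% and 0.623% in sham for Apoc2, and 11.5%, 30.2% and 42.3% in stroke and 2.51%, 5.68% and 7.56% in sham for Lpl. With T or NK cell-like UMIs subtracted, the female log2 ratio was 0.0063 for Apoe and 3.61 for Lpl. Subtraction of neutrophil-like UMIs was not run, since the sham pools held 3 and 5 such cells.

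All other values, 221 of the main results and 473 of single pathway genes, kept their direction and their side of the threshold or moved by less than the spread, while 66 of the pathway gene values lost their call and 5 gained one.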
